A study of Mus musculus with 2 samples.

Results

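Interferon response genes were examined in primary hepatocytes of C57BL/6 mice in which the zinc finger transcription factor KLF14 had been expressed from an adenovirus. The members are 37 gene symbols chosen by name: receptor chains, transcription factors, RNA sensors, antiviral effectors and interferon-induced GTPases. All 37 were present among the 35129 symbols of both tables. One group (Ad-KLF14) received the virus with KLF14 and the other (Ad-GFP) a control virus, labelled GFP in the sample and described as an empty vector in the series text. Both groups therefore carry an adenovirus, and no uninfected culture was analysed here. The labels give no virus dose, time after infection or age of the mice, and do not say whether cultures were pooled, although the series text speaks of triplicates. Each group holds 1 library, so there are no replicates and no test between the conditions, and every difference below is a difference between 2 libraries.

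Type I interferons bind the receptor chains IFNAR1 and IFNAR2, whose kinases JAK1 and TYK2 phosphorylate STAT factors such as STAT2. With IRF9 these form a complex that binds the interferon-stimulated response element (ISRE) in promoters, whereas the gamma-activated site (GAS) mediates responses to interferon gamma. Cytosolic sensors such as RIG-I and MDA5 detect viral RNA and induce interferon through MAVS and IRF3 or IRF7. Hepatocytes carry these receptors and sensors themselves, and the induced proteins degrade viral RNA, block its translation or hold back virus particles.

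Values are FPKM, reads per kilobase of gene model and per 1000000 reads. The recovered read totals were 11151711 for Ad-KLF14 and 11311344 for Ad-GFP. Klf14 stood at 13164 FPKM with Ad-KLF14, 1.95% of the reads of that library, and at 0.298 FPKM with Ad-GFP, and insert and endogenous transcripts are counted together. The 7 hepatocyte markers were all measured and summed to 4762 against 5759 FPKM (the Ad-KLF14 value always comes first), with albumin, Alb, at 4172 against 5115 FPKM. A gene was kept when the mean of its 2 values reached 1 FPKM, which 12419 of all genes and 36 of the 37 members did. Only Oas2 was below that limit. Log2 ratios compare Ad-KLF14 with Ad-GFP after adding 1 FPKM to each value, so that low genes appear closer than they are, while folds are plain ratios of FPKM. The bracketed 95% intervals of a fold are exact Clopper-Pearson intervals of the recovered reads and cover counting error only. In bulk RNA, fewer cells expressing a gene and less RNA per cell cannot be told apart.

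The interferon response genes were mostly lower in the Ad-KLF14 library. Of the 36 kept members, 31 lay below 0 on the log2 ratio, while 51.7% of all kept genes did. At least 2-fold lower were 11 members, where 8.99% of all kept genes were, and 0 members were at least 2-fold higher, where 6.37% of all kept genes were. The median log2 ratio of the members was −0.69, beside −0.03 for all kept genes. The counting interval of the ratio lay below 1 in 29 members, beside 37% of all kept genes, and above 1 in 3 members, beside 33.2%. The members ranged from −2.10 (Ifi44) to 0.46 (Irf5).

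**Figure D1:**
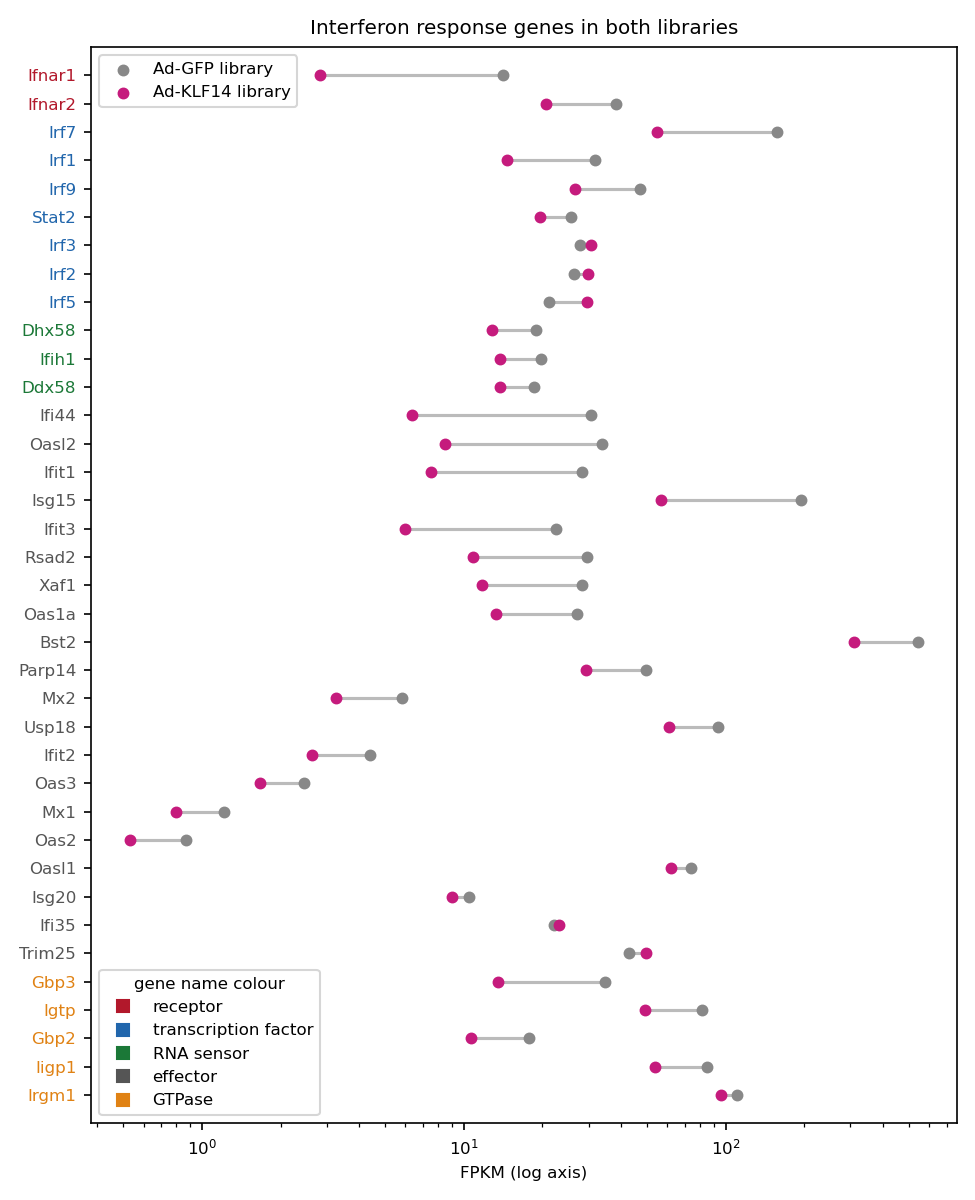
FPKM of the 37 genes in the Ad-GFP library (grey points) and the Ad-KLF14 library (pink points) on a log axis, with gene names coloured by role. The pink point lies to the left for most genes, by the most for Ifnar1 and Ifi44, and to the right for Irf2, Irf3, Irf5, Ifi35 and Trim25.

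The sequences in front of these genes were compared next. RefSeq promoter windows of build GRCm38.p6, from 250 bases before to 50 after each transcript start, were at hand for 30 of the 37 members. The ISRE core letters GAAA and again GAAA after a gap of any 2 bases, searched on both strands, were in the window of 15 of these 30 genes and of 3.99% of all 27025 genes with a window. The stretches below were chosen to show such matches in genes with large and with small differences. They read 5′ to 3′ along the strand of the gene, and capitals mark the ISRE core letters on either strand.
Isg15 (chr4:156200860-156200911, minus strand): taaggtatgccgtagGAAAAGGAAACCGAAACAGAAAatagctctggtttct
Ifit1 (chr19:34640770-34640828, plus strand): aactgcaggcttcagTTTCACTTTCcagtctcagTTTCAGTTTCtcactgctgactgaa
Ifit3 (chr19:34583358-34583431, plus strand): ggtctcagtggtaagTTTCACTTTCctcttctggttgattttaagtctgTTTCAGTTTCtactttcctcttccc
Rsad2 (chr12:26456548-26456587, minus strand): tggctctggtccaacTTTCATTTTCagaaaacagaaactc
Oas1a (chr5:120907526-120907560, minus strand): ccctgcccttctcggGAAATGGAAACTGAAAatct
Gbp3 (chr3:142559984-142560029, plus strand): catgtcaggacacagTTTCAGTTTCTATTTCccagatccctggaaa
Bst2 (chr8:71537572-71537617, minus strand): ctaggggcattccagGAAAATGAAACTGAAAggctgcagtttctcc
Irgm1 (chr11:48871421-48871465, minus strand): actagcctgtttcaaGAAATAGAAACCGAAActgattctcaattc

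Isg15 held 3 overlapping matches, and Oas1a, Gbp3, Bst2 and Irgm1 held overlapping pairs. In Ifit1 and Ifit3 the matches lay on the opposite strand and did not overlap. The GAS core letters TTCNNNGAA, which read the same on both strands, were found in 10 of the 30 members and 9.55% of all genes with a window. Irf1 held 1 of them, shown here in capitals.
Irf1 (chr11:53769909-53769947, plus strand): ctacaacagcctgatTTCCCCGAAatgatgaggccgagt

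Presence of the ISRE letters did not separate the genes by the size of the difference. Of the 15 members that held them, 5 were at least 2-fold lower, with a median log2 ratio of −0.71, and of the 15 without them 6 were, with a median of −0.81. Among genes with more than 1 match, Isg15, Ifit1, Ifit3 and Gbp3 were at least 2-fold lower on the log2 ratio. Oas1a, Bst2 and Irgm1 were not. Among genes with 1 match only Rsad2 was, and in Ddx58 and Ifih1 that match lay after the transcript start. The link with the number of matches was not tested. Irgm1, with a pair of matches as close together as in Oas1a, was at 95.8 against 111 FPKM, whereas Oas1a was at 13.3 against 27.1 FPKM. Ifi44 and Oasl2, which were among the lowest members, held neither set of letters in this window. For the GAS letters the medians were −0.76 in 10 holders and −0.75 in 20 genes without them. A match describes letters in a window and is not evidence of binding.

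**Figure D2:**
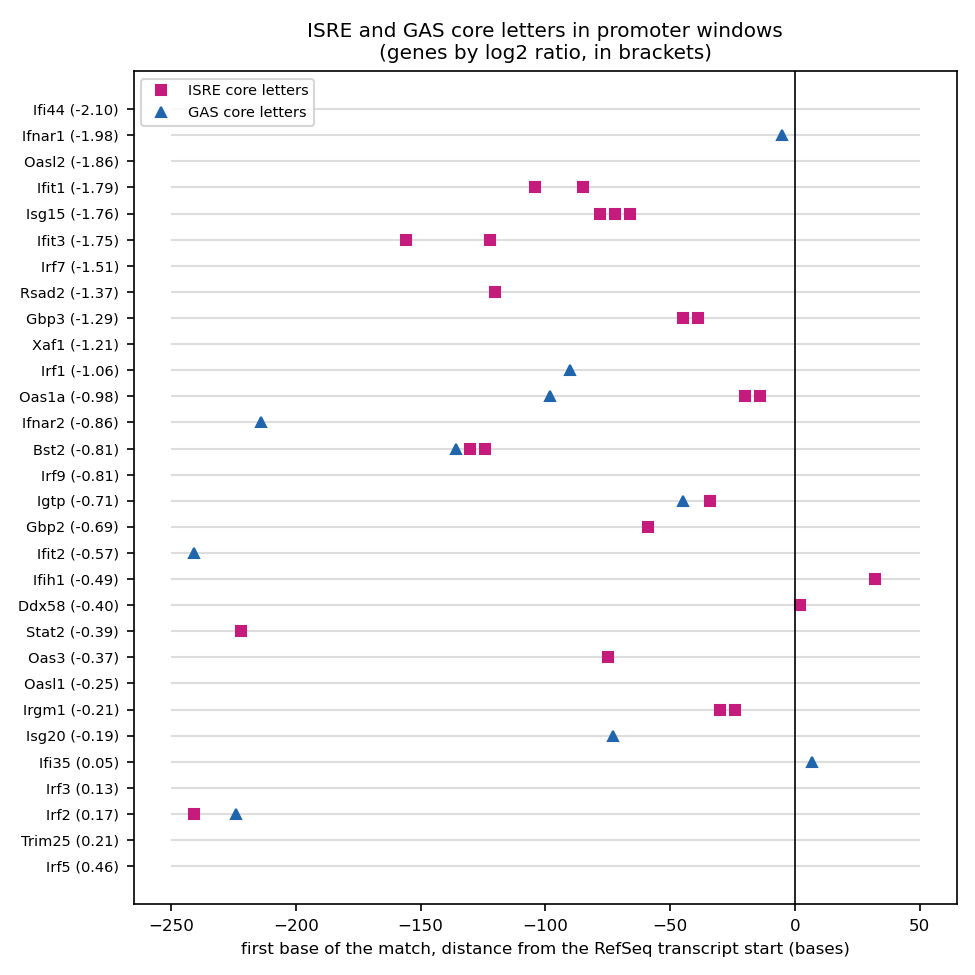
Distance in bases from the RefSeq transcript start to the first base of each ISRE core match (pink squares) and GAS core match (blue triangles) in the 30 genes with a window, ordered by log2 ratio (in brackets) with the lowest at the top. Matches occur along the whole order, from Ifnar1 (−1.98) near the top to Irf2 (0.17) near the bottom.

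Both chains of the type I interferon receptor were lower with Ad-KLF14. Ifnar1, the chain that recruits TYK2, was at 2.83 FPKM with Ad-KLF14 and at 14.1 FPKM with Ad-GFP. This 4.98-fold lower value (4.06 to 6.17) was the largest fold among the 37 genes, and Ifnar1 ranked 121 of 12419 from the lowest log2 ratio. It rests on at least 110 against 558 reads, a recovered pair divided by 2 because its implied length exceeded every transcript. Ifnar2, the chain that binds JAK1, was at 20.7 against 38.3 FPKM, 1.85-fold lower (1.69 to 2.03).

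The transcription factors split into lower and higher genes. Irf7, the interferon-induced factor that amplifies interferon transcription, was at 54.8 against 158 FPKM, 2.88-fold lower (2.69 to 3.08). Irf1, which is induced mainly by interferon gamma, was at 14.6 against 31.7 FPKM, 2.17-fold lower (1.91 to 2.47). The subunits of the ISRE-binding complex were less far apart. Irf9 was at 26.5 against 47.2 FPKM, 1.78-fold lower (1.63 to 1.95). Stat2 was at 19.5 against 25.8 FPKM, 1.32-fold lower (1.22 to 1.44).

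The other 3 IRF members had higher values with Ad-KLF14. Irf3, the constitutive factor activated by phosphorylation, was at 30.6 against 27.9 FPKM, with a ratio of 1.09 whose interval (0.981 to 1.22) held 1. Irf2, which competes with IRF1 for the same sites, was at 29.7 against 26.4 FPKM, a ratio of 1.13 (1.02 to 1.25). Irf5, known from Toll-like receptor signalling in myeloid cells, was at 29.6 against 21.2 FPKM, a ratio of 1.39 (1.24 to 1.57). Among the 7 factors, 4 were thus below 0 and 3 above, where 51.7% of all kept genes were below 0. The median log2 ratio of the 7 factors was −0.39. With Klf14 left out of the library totals, the interval of Irf3 lay above 1 as well.

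The 3 RNA sensors lay close together, and none was 2-fold apart. Ddx58, which encodes RIG-I, was at 13.8 against 18.5 FPKM, 1.34-fold lower (1.17 to 1.53). Ifih1, which encodes MDA5, the sensor of long double-stranded RNA, was at 13.8 against 19.7 FPKM, 1.43-fold lower (1.31 to 1.56). Dhx58 encodes LGP2, a relative without signalling domains that modulates the other sensors, and was at 12.9 against 18.9 FPKM, 1.47-fold lower (1.21 to 1.79). All 3 intervals lay below 1, and their folds were smaller than those of Irf7 and Irf1.

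**Figure D3:**
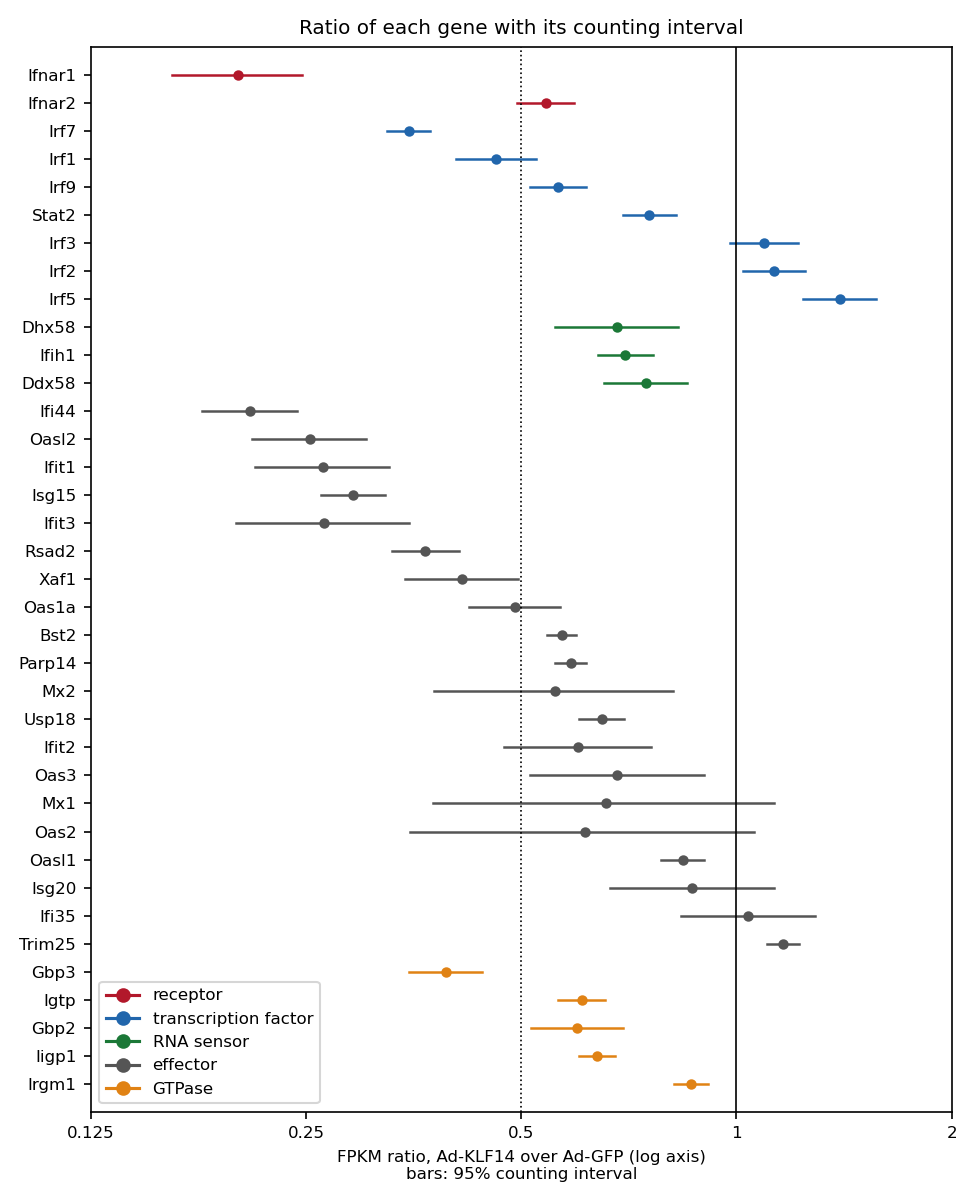
Ratio of FPKM in Ad-KLF14 over Ad-GFP for the 37 genes on a log axis, coloured by role, with the 95% counting interval as a bar. The solid line marks a ratio of 1 and the dotted line 0.5. Both receptor chains, all 3 sensors and all 5 GTPases lie left of the solid line with their whole interval.

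Among the 19 kept effectors, 17 lay below 0 and 7 were at least 2-fold lower, with a median log2 ratio of −0.75. Of all kept genes 51.7% lay below 0 and 8.99% were at least 2-fold lower. Ifi44, a cytoplasmic protein of the interferon response, was at 6.38 against 30.6 FPKM, 4.79-fold lower (4.12 to 5.59). Oasl2, an OAS-like protein, was at 8.52 against 33.7 FPKM, 3.95-fold lower (3.30 to 4.76). Isg15, the ubiquitin-like protein that is attached to other proteins, was at 56.7 against 195 FPKM, 3.44-fold lower (3.10 to 3.81). Rsad2, which encodes viperin, an enzyme that makes a chain-terminating nucleotide, was at 10.9 against 29.6 FPKM, 2.72-fold lower (2.45 to 3.04). Xaf1, an antagonist of the apoptosis inhibitor XIAP, was at 11.7 against 28.4 FPKM, 2.42-fold lower (2.02 to 2.91).

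The IFIT proteins bind viral RNA and inhibit its translation. Ifit1 was at 7.48 against 28.3 FPKM, 3.78-fold lower (3.06 to 4.71), and Ifit3, which stabilises IFIT1 complexes in human cells, at 5.97 against 22.5 FPKM, 3.77-fold lower (2.87 to 5.02). Ifit2 was less far apart, at 2.63 against 4.39 FPKM, 1.67-fold lower (1.32 to 2.11). The Ifit3 copy listed as I830012O16Rik was at 1.51 against 8.65 FPKM, and how reads were shared between the copies is not stated, so both values are uncertain.

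Oligoadenylate synthetases make the messenger that activates RNase L. Oas1a was at 13.3 against 27.1 FPKM, 2.04-fold lower (1.77 to 2.36), which is under 2-fold on log2(FPKM + 1). Oas3 was at 1.67 against 2.45 FPKM, 1.47-fold lower (1.11 to 1.95). Oas2 was at 0.534 against 0.869 FPKM from at least 23 and 38 reads, and its ratio of 0.614 (0.349 to 1.06) held 1. The 2 OAS-like genes differed from each other: Oasl1, which restrains IRF7 translation, was at 62.2 against 74.0 FPKM, 1.19-fold lower (1.11 to 1.28), an interval that does not overlap that of Oasl2. Oas1a has close copies whose reads could have been shared out, and among these Oas1g was at 4.23 against 6.39 FPKM, Oas1b at 2.29 against 3.41 FPKM and Oas1c at 3.02 against 4.02 FPKM.

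The remaining effectors were under 2-fold apart. Bst2, tetherin, which holds budding virions at the cell surface, had the highest level of all members in both libraries, at 308 against 541 FPKM, and was 1.76-fold lower (1.67 to 1.84). Parp14, an ADP-ribosyltransferase, was at 29.2 against 49.9 FPKM, 1.71-fold lower (1.62 to 1.80). Usp18, which removes ISG15 from proteins and restrains the receptor at IFNAR2, was at 60.7 against 93.6 FPKM, 1.54-fold lower (1.44 to 1.66). The dynamin-like GTPase genes Mx1 and Mx2, both typed as miscRNA in the files and known to be defective in C57BL/6 mice, were low. Mx2 was at 3.26 against 5.84 FPKM, 1.79-fold lower (1.23 to 2.65), and Mx1 at 0.798 against 1.21 FPKM with an interval of the ratio of 0.658 (0.377 to 1.13) that held 1.

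A few effectors did not follow the others. Isg20, an exonuclease, was at 9.07 against 10.4 FPKM, a ratio of 0.868 (0.666 to 1.13), and the recovered reads did not tell the libraries apart. Ifi35, a partner of the interferon-induced protein NMI, was at 23.1 against 22.2 FPKM, a ratio of 1.04 (0.836 to 1.29), and again no difference was detectable. Trim25, the ubiquitin ligase that acts on RIG-I, was at 49.8 against 42.9 FPKM, a ratio of 1.16 (1.10 to 1.22).

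All 5 interferon-induced GTPases were lower, with a median log2 ratio of −0.69. Gbp3, a guanylate-binding protein, was at 13.6 against 34.6 FPKM, 2.55-fold lower (2.27 to 2.87), and Gbp2 at 10.7 against 17.8 FPKM, 1.67-fold lower (1.44 to 1.94). The immunity-related GTPases guard membranes against intracellular parasites. Of these Igtp was at 49.2 against 81.0 FPKM, 1.65-fold lower (1.53 to 1.77), and Iigp1 at 54.0 against 84.7 FPKM, 1.57-fold lower (1.48 to 1.66). Irgm1, a regulator of the family, was at 95.8 against 111 FPKM, 1.16-fold lower (1.10 to 1.22), the smallest difference of the 5.

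Other genes of the pathway were taken from lists that do not overlap the members. No interferon ligand was kept: 15 of 18 listed at 0 in both libraries and none above 0.344 FPKM. Ifnb1, interferon beta, had 0 reads with Ad-KLF14 and at least 3 with Ad-GFP, which is at the floor of 3 reads that a count of 0 allows. Of the remaining receptors and JAK-STAT genes, 7 of 9 lay below 0, where 51.7% of all kept genes did. At least 2-fold lower were 3 of the 9, where 8.99% of all kept genes were. Among these 3, the interferon gamma receptor chain Ifngr2 was at 16.3 against 43.8 FPKM (ratio 0.372, 0.313 to 0.440). Jak1, another of the 3, was at 29.5 against 65.2 FPKM (0.452, 0.417 to 0.490). Ifngr1 was at 33.8 against 64.9 FPKM, while Stat3 was higher, at 56.1 against 38.8 FPKM, a ratio of 1.45 (1.37 to 1.53).

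The feedback inhibitors of the pathway went both ways, with a median log2 ratio of −0.12 over 12 genes. Ptpn1, a phosphatase of JAK2 and TYK2, was at 33.8 against 14.4 FPKM, a ratio of 2.35 (2.15 to 2.57), and Socs3 at 16.3 against 7.83 FPKM, a ratio of 2.09 (1.67 to 2.62). Pias3, an inhibitor of STAT3, was at 1.72 against 5.88 FPKM (0.292, 0.214 to 0.394) and the phosphatase gene Ptpn6 at 1.62 against 4.72 FPKM (0.344, 0.196 to 0.579). Of these 4 genes Socs3 alone was under 2-fold on log2(FPKM + 1). Socs1, the main inhibitor of interferon receptor signalling, was at 1.03 against 1.81 FPKM from at least 14 and 25 reads, and its ratio of 0.568 (0.273 to 1.14) held 1.

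Sensors, adaptors and kinases of nucleic acid detection also went both ways, with 10 of 14 below 0, beside 51.7% of all kept genes. The median over these 14 genes was −0.26. Mavs, the mitochondrial adaptor of RIG-I and MDA5, was at 46.6 against 18.3 FPKM, a ratio of 2.55 (2.32 to 2.80), in contrast to the 3 RNA sensors themselves. Zbp1, a sensor of Z-form nucleic acids, was at 21.2 against 46.8 FPKM (0.453, 0.387 to 0.529), and Ifi204 at 3.52 against 8.12 FPKM (0.433, 0.334 to 0.556). The RNA-dependent kinase gene Eif2ak2, which halts translation, had a ratio of 0.507 (0.462 to 0.556). The kinase gene Tbk1, which activates IRF3, was at 39.2 against 37.3 FPKM, with a counting interval of the ratio from 0.974 to 1.14. The DNA sensor adaptor gene Tmem173, STING, was under 1 FPKM in both libraries. In the IRF list outside the membership, Irf8, a factor of myeloid cells, was at 2.82 against 3.80 FPKM, while the IRF2-binding protein genes differed in direction, with Irf2bp1 at 10.6 against 17.5 FPKM and Irf2bp2 at 15.1 against 8.63 FPKM.

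The other induced genes resembled the members. Of 41 kept effectors outside the membership, 35 lay below 0 and 11 were at least 2-fold lower, with 0 higher by that much and a median of −0.62. Ifi30, a lysosomal thiol reductase, was at 13.3 against 63.6 FPKM (0.210, 0.161 to 0.271). Ube2l6, the conjugating enzyme for ISG15, was at 28.4 against 116 FPKM (0.245, 0.220 to 0.272), and Trim30 at 7.80 against 27.3 FPKM (0.285, 0.252 to 0.323). No whole gene length was found for Ddx60, at 1.21 against 4.78 FPKM. Its reads of at least 1 against 4 are a bare ratio, so its interval, which held 1, is not informative. The 4 kept OAS and IFIT paralogues and the 8 kept GTPases outside the membership lay below 0 without exception, and 4 of these GTPases were at least 2-fold lower. Tgtp1 was at 11.2 against 38.2 FPKM (0.294, 0.260 to 0.331) and Gvin1 at 0.575 against 3.15 FPKM (0.183, 0.119 to 0.273). Gbp9 was at 3.33 against 8.59 FPKM and Ifi47 at 17.6 against 36.3 FPKM. Over all 92 kept genes of these lists, 74 lay below 0, beside 51.7% of all kept genes. At least 2-fold lower were 23, beside 8.99%, and 2 were higher by that much, beside 6.37%.

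**Figure D4:**
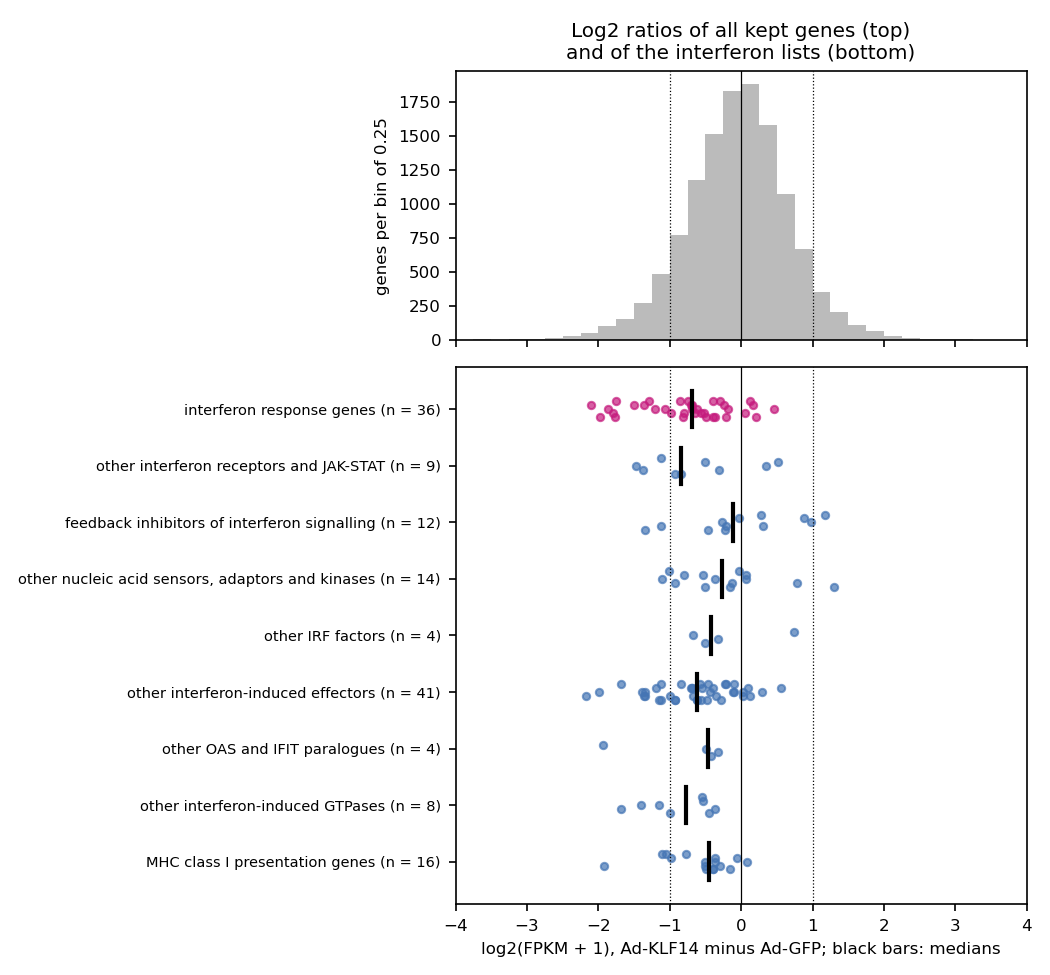
Top, number of kept genes per bin of 0.25 of the log2 ratio (2 genes lie beyond the axis limits of 4 either way). Bottom, log2 ratios of single genes of the members (pink) and the other lists (blue), with black bars at the medians: the members' median lies at −0.69, that of the feedback inhibitors at −0.12 and that of the other effectors at −0.62.

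Markers of other cell types were read in the same libraries, since immune cells express interferon response genes too. Kupffer cell and macrophage markers summed to 209 against 141 FPKM, and without Cd68 the sum was lower with Ad-KLF14. Of 7 kept markers 5 lay above 0 and 2 below, with Cd68 at 160 against 71.1 FPKM and Mpeg1 at 17.1 against 40.1 FPKM. Clec4f and Vsig4 were under 1 FPKM in both libraries. The other markers of the list were above it, with Emr1 at 4.09 against 2.78 FPKM and Marco at 5.10 against 4.50 FPKM. Cd5l was at 2.73 against 2.30 FPKM, Lyz2 at 17.8 against 17.7 FPKM and Csf1r at 1.04 against 1.05 FPKM. Dendritic cell markers other than Bst2, which is a member, summed to 2.13 against 2.10 FPKM, and Siglech of plasmacytoid cells was at 0.0374 against 0.0369 FPKM. Natural killer and T cell markers summed to 0.174 against 0.0857 FPKM, with 7 of 8 at 0 in both libraries. B cell markers summed to 2.17 against 0.841 FPKM, neutrophil markers to 1.32 against 1.49 FPKM with 3 of 5 at 0 in both, and endothelial markers to 6.09 against 4.67 FPKM. Stellate cell and fibroblast markers summed to 3.25 against 3.36 FPKM and cholangiocyte markers to 194 against 688 FPKM with Krt7 at 0 in both. Nearly all of the latter sum was Spp1, at 191 against 681 FPKM, while Krt19, Sox9 and Epcam did not exceed 4.26 FPKM in either library. The part of these cells in the interferon gene differences was not tested.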

How the data were processed

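Per the labels' protocols, Trizol was used to extract total RNA and an Illumina TruSeq kit to prepare libraries. Bowtie 0.12.2 and the mm8 mouse build were used, per the submitters' processing notes. The series text names other aligners and speaks of retina, so parts of it may belong elsewhere. Gene models, counting rule, use of strand and treatment of multiply matching reads are not given in the sources used here. The values that the authors deposited, 1 file for each library, are FPKM.

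Totals of 11151711 and 11311344 reads were recovered as the greatest common divisors of the steps of low genes. Ratios were whole-number ratios times 1 constant in 16944 of 16944 genes above 0 in both libraries (relative tolerance 1e-11). Implied gene lengths lay within 1% of a GENCODE transcript in 20 of 37 members. Reads per gene are the smallest whole pair giving a whole length. They were divided by 2 in 4 members where that length exceeded every transcript (Ifit3, Isg20, Ddx58 and Ifnar1). Intervals may therefore be too wide. Where no whole length was found, as for Ddx60, the reads are the bare ratio in lowest terms. In a simulation of 25678 genes with whole transcript lengths, both totals were recovered and 83.3% of reads were exact. The 0% of reads too high was fixed by this setting, as the smallest pair giving a whole length cannot exceed the true pair. In the real libraries 41.6% of 16047 recovered lengths lay within 1% of a transcript. The floor of 3 reads equals 0.135 FPKM (Ad-KLF14) and 0.133 FPKM (Ad-GFP) at a length of 2000 bases.

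Genes whose mean reached 1 FPKM were kept, a pseudocount of 1 FPKM was used and the fold limit was 2. With 1 library per group no test was possible. Alternatives were pseudocounts of 0.1 and 5 FPKM, scaling by a trimmed mean or upper quartile or without Klf14, other filters and a fold limit of 1.5. All members are named, with up to 4 genes of each other list by absolute log2 ratio, all that reached 2-fold where these were 5 or fewer, and Klf14 and Alb. Stat3, Socs1, Tbk1, Tmem173, Ifnb1, H2-K1, B2m, Nlrc5 and single cell type markers were added after their values were seen. A few genes that this rule names are counted in their lists but not reported here. Members and lists were chosen with earlier results of these data known. Python 3.11.15 with numpy 2.4.6, pandas 2.3.3, scipy 1.17.1 and matplotlib 3.10.9 was used.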

Additional observations from a re-analysis of the deposited data

How the results depend on the processing

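The number of members below 0 was 31 of 36 with the pseudocounts of 0.1 and 5 FPKM and all 3 rescalings. It was 32 of 37 without a filter and 27 of 32 with a filter at 5 FPKM. No member changed sign with the 3 rescalings, while a pseudocount or a filter cannot change a sign. The count at least 2-fold lower ran from 9 (pseudocount of 5 FPKM) to 12 (0.1 FPKM), and was 21 with a fold limit of 1.5. Beside it, the share of all kept genes was 20.9% at 1.5-fold, 3.76% with a pseudocount of 5 FPKM, 12.0% with 0.1 FPKM and 5.92% without a filter. Other pathway genes at least 2-fold lower numbered 11 with a pseudocount of 5 FPKM and 38 at 1.5-fold, in place of 23. The members' median lay between −0.73 and −0.60. Leaving Klf14 out of the totals moved the median of all genes by 0.08 and gave 10 members at least 2-fold lower, a members' median of −0.61, 7.62% of all genes lower and 7.94% higher. In these totals, and with the trimmed mean, chosen for this count after seeing the data, 29 members had an interval below 1 and 4 above. Over all kept genes these shares were 32.7% below and 37.8% above without Klf14, and 35.2% and 35.1% with the trimmed mean. Of 248 single values, 12 moved beyond their counting interval, 7 with a pseudocount of 5 FPKM and 5 without Klf14. The filter alternatives leave the value of a member as it is, so their part of the 248 could not move. No paired analysis was possible because each group holds 1 library, and for the same reason no library could be left out. With the deposited totals the intervals of Mx1, Oas2, Isg20, Ifi35 and Irf3 held 1. As the reads are lower limits, these intervals may be too wide.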

Other observations

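Antigen presentation by MHC class I, a further target of interferon, was lower in most of its genes. Of 16 kept genes of this list 15 lay below 0, where 51.7% of all kept genes did. At least 2-fold lower were 3, where 8.99% of all kept genes were, and the median log2 ratio was −0.45. The list also held the class II genes Cd74 and Ciita, of which Cd74 was kept and lay below 0, at 9.57 against 10.7 FPKM. The proteasome activator gene Psme1 was at 35.4 against 136 FPKM (0.260, 0.232 to 0.291), the immunoproteasome subunit gene Psmb9 at 18.7 against 41.5 FPKM (0.451, 0.344 to 0.586) and the peptide transporter gene Tap1 at 29.2 against 61.7 FPKM (0.473, 0.367 to 0.605). Psmb8, another immunoproteasome subunit gene, was at 42.7 against 85.1 FPKM. The heavy chain gene H2-K1 was at 1130 against 1595 FPKM and B2m at 2615 against 3380 FPKM, ratios of 0.709 and 0.774. Nlrc5, the class I transactivator, was at 10.5 against 10.9 FPKM, a ratio of 0.955 (0.766 to 1.19).

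A second look at the promoter windows used the GC box letters GGGCGG on either strand, chosen after the values were seen because SP and KLF factors bind GC-rich boxes. Of the 30 members with a window 16 held them, beside 38.2% of all genes with a window and 69.9% of the kept ones. The 16 holders had a median log2 ratio of −0.48 with 3 at least 2-fold lower, and the 14 genes without them a median of −1.33 with 8 at least 2-fold lower. The letters CACCC, on either strand, were in 24 of the 30 members, beside 59.8% of all genes with a window and 66.1% of the kept ones. The medians were −0.53 in holders and −1.13 in the 6 others. These counts describe letters in a window and were not tested.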
